A study of Musculus with 2 samples.

Results

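The cells described here are fibroblasts of mouse fat that carry transcripts of Ccn5, Mfap4, Gas6, Cxcl13, Cilp and Pgr, 358 from the LPCAT3-AKO library and 454 from the Control library. They are 812 of the 11035 stromal cells and of the 24090 cells that passed the cell filter. The members were chosen by raw counts of unique molecular identifiers (UMIs, 1 per captured transcript). A cell had to show at least 500 genes, with no more than 10% of its UMIs from mitochondrial genes named mt-. It also had to have 10 or more UMIs of Dcn, which encodes the fibroblast proteoglycan decorin, and none of Ptprc, Pecam1 or Epcam, which mark leukocytes, endothelium and epithelium. At least 3 of the 6 genes Ccn5, Mfap4, Gas6, Cxcl13, Cilp and Pgr had to be detected. Upper limits kept out cells with 3 or more UMIs of Fmo2, Inmt and Gdf10 together, 2 or more of Col15a1, 15 or more of the interferon-induced genes Rsad2, Ifit1 and Ifit3, or 3 or more of the division genes Mki67 and Top2a. Cells that met every condition are called members below. Because these counts chose the members, the levels of the same genes are a description of the choice, and so is every comparison of members with the cells left outside it.

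The study set mice labelled LPCAT3-AKO, genotype LPCAT3 knockout, against mice labelled Control, genotype WT. Each group was 1 single-cell RNA library, made by the 10x Genomics method from the stromal vascular fraction of subcutaneous white adipose tissue, that is, from the cells left once collagenase had released them and the floating fat cells had been removed. The labels give 5-week-old mice and the text of the series gives 2 months, with a diet abbreviated CD in both genotypes. The sources used here do not give how many mice went into a library, which exons were deleted and in which cells, or which 10x kit was used. With 1 library per genotype no difference between genotypes could be tested, the intervals below cover counting error only, and mouse, dissection and library cannot be told apart from genotype.

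Fibroblasts of fat lie in the connective tissue between lobules and around vessels, and some of them are the precursors from which new fat cells form. Cells rich in Dpp4 and Pi16 are known as interstitial progenitors, cells rich in Icam1, Pparg and Fabp4 as committed preadipocytes, and cells rich in F3, Fmo2 and Gdf10 as a regulatory stroma that restrains fat cell formation. CCN5, the product of Ccn5, is a secreted matrix protein that takes part in Wnt signalling in fat precursors. MFAP4 sits on elastic microfibrils, CILP is a matrix protein first described in cartilage, and GAS6 is the ligand of the receptor kinases AXL, TYRO3 and MERTK. CXCL13 attracts B cells, PGR is the progesterone receptor and IL31RA is a receptor chain for the cytokine interleukin 31. LPCAT3, the enzyme deleted in the study, attaches polyunsaturated fatty acids to lysophospholipids, above all in phosphatidylcholine remodelling.

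Both libraries were sequenced to a similar depth. They held 119355147 UMIs in 12806 barcodes for LPCAT3-AKO and 111669076 UMIs in 13831 barcodes for Control, over 32285 genes. Members had a median of 10440.5 UMIs in LPCAT3-AKO and 11313 in Control, against 9163 and 9402 in the other stromal cells, and their summed UMIs came to 3829506 and 5227238. Levels are given as CPM, the UMIs of a gene scaled to a total of 1000000 UMIs in every group. Across the libraries 58 barcode sequences occurred in both, 8 of them on a member, and no barcode was a member in both. Lpcat3 itself, the targeted gene, stood at 29.0 CPM in LPCAT3-AKO members and 26.6 CPM in Control members, from 111 and 139 UMIs, a ratio of 1.09 (95% exact binomial interval 0.842 to 1.41). In other stromal cells it stood at 29.4 CPM in LPCAT3-AKO and 27.0 CPM in Control. Since the deleted part of the gene and the cells with the deletion are not given, this level does not check the labels.

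Members carried the general fibroblast transcripts, and they also carried Dpp4 and Pi16. All 10 listed pan-fibroblast genes were measured, meaning 20 CPM or more in the higher of the groups compared, and none differed from the other stromal cells by the size rule given below. Pdgfra, a receptor found on fibroblasts of fat, had 456 CPM in LPCAT3-AKO members and 449 CPM in Control members. Pi16, a marker of interstitial progenitors, had 2913 and 2183 CPM in LPCAT3-AKO and Control members, against 3780 and 3341 CPM in the cells gated on Dpp4 and Pi16. Dpp4, a peptidase on the surface of the same progenitors, had 463 CPM in LPCAT3-AKO members and 470 CPM in Control members, against 532 and 506 CPM in that gate. At least 2 UMIs of Dpp4 and Pi16 together were found in 96.6% of LPCAT3-AKO members (95% exact interval 94.2 to 98.3) and 97.8% of Control members (96.0 to 98.9). Neither gene was part of the choice, and nearly all members would also have met the gate that defines the Dpp4 cells. Of non-members below the limits on Fmo2, Inmt and Gdf10 and on Col15a1, 2917 in LPCAT3-AKO and 3554 in Control met it. Only 110 and 127 did not, so a share this high is not particular to members.

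The comparison groups were set by gates among the stromal cells that were not members. The Fmo2 gate took cells with 3 or more UMIs of Fmo2, Inmt and Gdf10, 804 in LPCAT3-AKO and 471 in Control. Of the rest, the Col15a1 gate took cells with 2 or more Col15a1 UMIs, 1386 and 854. The Dpp4 gate took cells with 2 or more UMIs of Dpp4 and Pi16 from what was left, 2917 and 3554, and 110 and 127 cells remained. Cells with a Ptprc UMI and fewer than 10 Dcn UMIs, 3823 in LPCAT3-AKO and 4479 in Control, form the immune gate, with median depths of 7951 and 6985 UMIs.

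Ccn5, Cilp, Il31ra and Pgr were higher in members than in each of the 3 gates in both libraries. Ccn5 stood at 443 CPM in LPCAT3-AKO members (95% Poisson interval 423 to 465) and 309 CPM in Control members (294 to 324). The Fmo2 gate had 123 CPM in LPCAT3-AKO and 196 CPM in Control, the Col15a1 gate 169 and 153 CPM, and the Dpp4 gate 15.1 and 20.2 CPM. Ccn5 was therefore lowest among these in the Dpp4 gate, and the choice partly sets this. Stromal cells with 3 or more markers outside the Fmo2 and Col15a1 gates are members, unless they pass the interferon or division limit. The Dpp4 gate thus holds few such cells. Cilp had 373 CPM in LPCAT3-AKO members (354 to 393) and 144 CPM in Control members (134 to 155), with 131 and 81.7 CPM in the Fmo2 gate, 171 and 60.5 CPM in the Col15a1 gate and 10.5 and 5.79 CPM in the Dpp4 gate. Il31ra, listed as a marker but not used in the choice, had 104 CPM in LPCAT3-AKO members (94.0 to 115) and 87.6 CPM in Control members (79.8 to 96.0). Its other stromal levels were 25.1 and 27.7 CPM in the Fmo2 gate, 35.0 and 33.9 CPM in the Col15a1 gate, and 5.28 and 11.9 CPM in the Dpp4 gate of LPCAT3-AKO and Control. Pgr stood at 194 CPM in LPCAT3-AKO members (180 to 208) and 223 CPM in Control members (210 to 236), against at most 68.9 CPM in any of the 3 gates of either library.

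Mfap4, Gas6 and Cxcl13 came close to or passed their level in members in another group of cells of at least 1 library. Mfap4 had 188 CPM in LPCAT3-AKO members (175 to 202) and 81.7 CPM in Control members (74.1 to 89.8). In the Fmo2 gate it had 71.4 CPM in LPCAT3-AKO and 78.3 CPM in Control, and in the Col15a1 gate 96.1 and 59.7 CPM, so the Control members and the Control Fmo2 gate lay close together. Gas6 had 496 CPM in LPCAT3-AKO members (474 to 519) and 546 CPM in Control members (526 to 567). The Fmo2 gate reached 394 and 551 CPM of Gas6, and the immune gate, which has its own Gas6 transcripts, 532 and 522 CPM. Cxcl13 had 184 CPM in LPCAT3-AKO members (171 to 198) and 273 CPM in Control members (259 to 287). Its highest stromal level was that of the LPCAT3-AKO Fmo2 gate, 433 CPM, against 145 CPM in the Control Fmo2 gate. Cxcl13 thus does not single out the members in the LPCAT3-AKO library, nor does Mfap4 in the Control library. The name of the cells holds for Ccn5 more than for Mfap4 or Cxcl13.

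**Figure D1:**
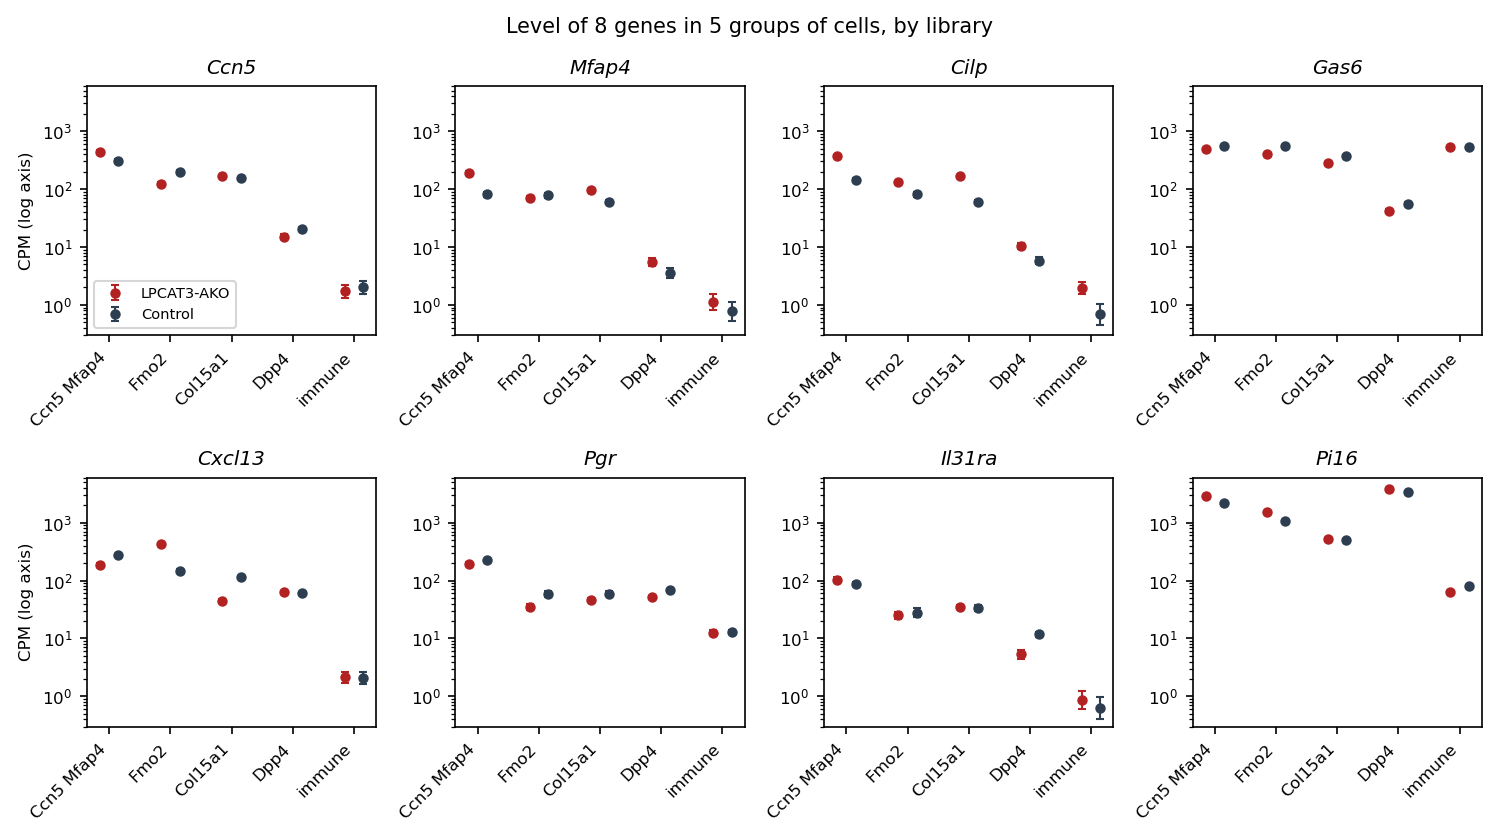
Level of 8 genes (CPM of summed UMIs, log axis) in members (Ccn5 Mfap4), in the Fmo2, Col15a1 and Dpp4 gates and in the immune gate, with LPCAT3-AKO left of Control and bars showing 95% Poisson intervals. Ccn5, Cilp, Pgr and Il31ra are highest in members of both libraries, Cxcl13 reaches 433 CPM in the LPCAT3-AKO Fmo2 gate against 184 CPM in LPCAT3-AKO members, and Pi16 in members (2913 and 2183 CPM) lies below its level in the Dpp4 gate (3780 and 3341 CPM).

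The make-up of the members differed between the libraries. Mfap4 was detected in 46.9% of LPCAT3-AKO members and 23.8% of Control members, and Cilp in 50.6% and 22.9%. Cxcl13 was detected in 49.7% of LPCAT3-AKO members and 69.6% of Control members, and Pgr in 58.9% and 76.4%. Other stromal cells differed in the same direction for Mfap4, detected in 9.85% in LPCAT3-AKO and 5.41% in Control. There Cilp was detected in 9.09% and 4.47% and Pgr in 16.5% and 25.3%, while Cxcl13 was close, at 18.2% and 17.6%. The direction for Mfap4, Cilp and Pgr was thus not particular to members. Ccn5 (76.8% and 76.2%), Gas6 (87.7% and 90.3%) and Il31ra (40.2% and 43.8%) were detected at similar rates in LPCAT3-AKO and Control members. The same order held when each cell was thinned to 5000 UMIs, with 23 LPCAT3-AKO and 19 Control members left out as too shallow. Cilp was then found in 38.8% of LPCAT3-AKO and 18.2% of Control members, Mfap4 in 34.9% and 17.5%, Cxcl13 in 38.5% and 51.5%, and Pgr in 43.6% and 60.0%. In the immune gate at the same 5000 UMIs, the shares were 1.04% and 0.285% for Cilp, 0.657% and 0.380% for Mfap4, 0.933% and 0.856% for Cxcl13, and 1.62% and 1.46% for Pgr. That gate does not keep out epithelium, and 117 and 108 of its cells had an Epcam UMI. Its Pgr UMIs before thinning, 440 and 446, lay in 102 and 85 cells, so its Pgr share need not be a background level.

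Pairs of markers were counted as well, and because a member needs 3 of the 6, these shares describe the choice. Mfap4 with Cilp was found in 32.1% of LPCAT3-AKO members and 11.7% of Control members, and Ccn5 with Cilp in 39.4% and 19.8%. Cxcl13 with Pgr was found in 30.4% of LPCAT3-AKO members and 53.7% of Control members, and Gas6 with Pgr in 50.3% and 68.5%. Exactly 3 of the 6 markers were detected in 53.1% of LPCAT3-AKO members and 55.5% of Control members, and all 6 in 22 cells (6.15%) and 12 cells (2.64%). The tenth of members with the most UMIs of a gene held 64.3% of all Cilp UMIs in LPCAT3-AKO and 86.6% in Control, and 59.7% and 78.9% of all Mfap4 UMIs. For Pgr that share was 46.6% in LPCAT3-AKO and 35.2% in Control, for Ccn5 47.6% and 45.3%, for Cxcl13 60.2% and 47.8%, and for Il31ra 57.5% and 48.7%. In Control these shares were highest for Cilp and Mfap4, and in LPCAT3-AKO for Cilp, Cxcl13 and Mfap4.

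**Figure D2:**
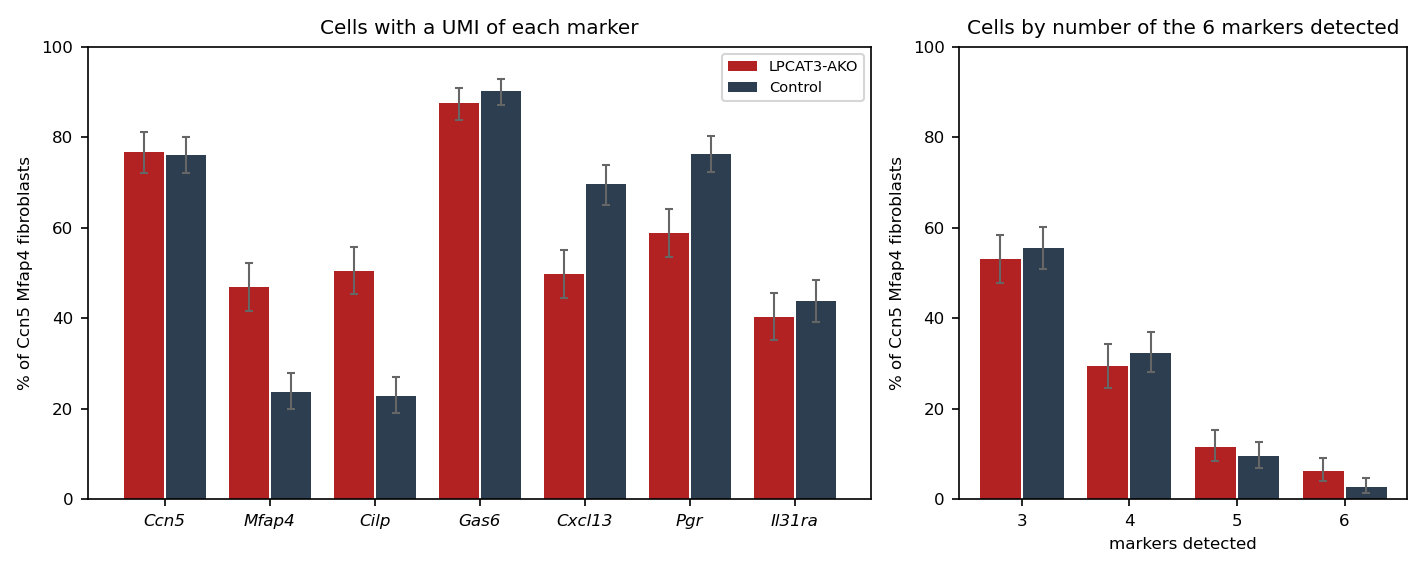
Share of members (%) with at least 1 UMI of each marker (left) and with 3, 4, 5 or 6 of the 6 markers detected (right), LPCAT3-AKO bars left of Control bars, with 95% exact binomial intervals. Mfap4 (46.9% and 23.8%) and Cilp (50.6% and 22.9%) are detected more often in LPCAT3-AKO members, Cxcl13 (49.7% and 69.6%) and Pgr (58.9% and 76.4%) less often.

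Ccn5 and Il31ra levels were higher with all 6 markers detected than with 3, but not every step was a rise. Ccn5 is 1 of the 6, so its rise is set by the count, whereas Il31ra is not counted. With exactly 1 marker Ccn5 stood at 8.69 CPM in LPCAT3-AKO and 9.53 CPM in Control. Stromal cells within all limits that had exactly 2 of the 6 markers, 393 in LPCAT3-AKO and 532 in Control, held 39.3 and 41.9 CPM of Ccn5 and 12.1 and 19.6 CPM of Il31ra. Members with exactly 3 markers, 190 in LPCAT3-AKO and 252 in Control, held 219 and 158 CPM of Ccn5 and 74.9 and 59.3 CPM of Il31ra. Members with exactly 5 markers held 889 and 558 CPM of Ccn5 and 126 and 174 CPM of Il31ra. Members with all 6 markers held 865 and 641 CPM of Ccn5 and 305 and 132 CPM of Il31ra. Cxcl13 did not rise steadily: from 3 to 6 markers it had 155, 219, 123 and 344 CPM in LPCAT3-AKO. In Control it had 224, 335, 345 and 189 CPM. Cells with 3 or more markers that an upper limit removed, 429 in LPCAT3-AKO and 355 in Control, held 611 and 519 CPM of Ccn5 and 98.8 and 91.2 CPM of Il31ra. The removed cells thus held more Ccn5 than the members as a whole.

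Members made up 6.42% of stromal cells in LPCAT3-AKO (358 of 5575, 95% exact interval 5.79 to 7.10) and 8.32% in Control (454 of 5460, 7.60 to 9.08), a ratio of 0.772 (0.670 to 0.889). Before the upper limits the shares were 14.1% in LPCAT3-AKO and 14.8% in Control, a ratio of 0.953 (0.863 to 1.05). Of the cells with 3 or more markers, 54.5% in LPCAT3-AKO and 43.9% in Control were removed by a limit. The limit on Col15a1 took 39.9% and 25.8%, that on Fmo2, Inmt and Gdf10 took 25.0% and 13.5%, and that on the interferon-induced genes 7.12% and 13.97%, and a cell could meet several of them. Among stromal cells below 5000 UMIs the member share was 4.41% in LPCAT3-AKO and 3.78% in Control, and at 5000 to 10000 UMIs 4.85% and 5.04%. At 10000 to 15000 UMIs it was 8.69% and 11.6%, and above 15000 UMIs 8.998% and 18.6%. The lower share of members in LPCAT3-AKO therefore holds for the choice with its limits and for the deeper cells. It does not hold for every kind of member. Members with a Cilp or Mfap4 UMI numbered 234 in LPCAT3-AKO and 159 in Control, and members without either numbered 124 and 295. Before the limits, stromal cells with exactly 3 markers were 5.96% and 7.18%, with 4 markers 4.11% and 5.02%, with 5 markers 3.07% and 1.89%, and with 6 markers 0.987% and 0.733%. Over the gates, the Fmo2 cells (14.4% and 8.63%) and Col15a1 cells (24.9% and 15.6%) took larger shares of the LPCAT3-AKO stroma. With every cell thinned to 5000 UMIs before the choice, the ratio of the share of Ccn5 Mfap4 fibroblasts was 0.878 (0.759 to 1.02).

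To describe single genes, a size rule was used: 20 CPM or more in the higher group, a ratio of at least 1.5, and a 95% exact binomial interval of the ratio that excludes 1. Fold changes are log2 ratios of CPM + 1. Against the other stromal cells, 117 of 5880 measured genes (1.99%) were higher and 123 (2.09%) lower in members of both libraries. Of the genes higher in one library, these 117 were 66.9% of the 175 in LPCAT3-AKO and 74.1% of the 158 in Control, and for the lower genes the shares were 55.4% of 222 and 57.7% of 213. The genes named first below are taken from the 20 with the highest and the 12 with the lowest ratios in both libraries, without genes of the choice, mitochondrial, ribosomal, haemoglobin, immunoglobulin and sex-linked genes and unnamed loci.

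Besides Il31ra, the leading genes included Tgm2, Greb1, Trdn and Myoc. Tgm2, which encodes the protein-crosslinking enzyme transglutaminase 2, had 175 CPM in LPCAT3-AKO members and 196 CPM in Control members, against 44.2 and 59.0 CPM in other stromal cells (log2 ratio 1.96 and 1.72). It was detected in 43.3% of LPCAT3-AKO and 59.0% of Control members. Greb1, a gene induced by estrogen, had 121 and 140 CPM in LPCAT3-AKO and Control members, against 29.0 and 49.2 CPM (2.03 and 1.49), and was detected in 50.3% and 67.2% of them. Trdn, which encodes the muscle calcium release protein triadin, had 31.9 CPM in LPCAT3-AKO members and 33.1 CPM in Control members, against 8.99 and 8.59 CPM (1.72 and 1.83). Myoc, which encodes the secreted glycoprotein myocilin, had 338 and 156 CPM in LPCAT3-AKO and Control members, against 66.7 and 47.5 CPM (2.32 and 1.70). All of these stood apart from the other stromal cells in both genotypes, although Myoc was higher in LPCAT3-AKO members.

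Gpx3, Igf1 and Fbln1, which code for secreted proteins, were the most abundant of the leading genes. Gpx3, the extracellular glutathione peroxidase, had 3629 CPM in LPCAT3-AKO members and 2345 CPM in Control members, against 1456 and 964 CPM in other stromal cells (1.32 and 1.28). Igf1, insulin-like growth factor 1, had 602 and 419 CPM in LPCAT3-AKO and Control members, against 266 and 185 CPM (1.18 and 1.17). Fbln1, a fibulin of elastic fibres and basement membranes, had 589 and 367 CPM, against 241 and 163 CPM (1.29 and 1.17). Akr1c14, a hydroxysteroid dehydrogenase, had 264 and 289 CPM in LPCAT3-AKO and Control members, against 114 and 128 CPM (1.21 and 1.16). The remaining leading genes included Pdgfrl, Angptl1, Nrcam, Celf4, Cdh13, Ampd3, Fxyd6, Ecrg4 and Sfrp1. Among them Angptl1, an angiopoietin-like secreted protein, had 88.3 and 60.8 CPM in LPCAT3-AKO and Control members, against 24.0 and 19.8 CPM, and Nrcam, a cell adhesion molecule known from neurons, 56.1 and 42.9 CPM, against 16.1 and 14.6 CPM.

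The lowest genes were led by Car3 and Fabp4, both abundant in fat cells. Car3, carbonic anhydrase 3, gave no UMI in LPCAT3-AKO members, which allows up to 0.783 CPM, and 1.15 CPM in Control members, against 53.0 and 36.9 CPM in other stromal cells. Fabp4, the fatty acid carrier of fat cells, had 41.3 CPM in LPCAT3-AKO members and 36.5 CPM in Control members, against 860 and 631 CPM (log2 ratio -4.35 and -4.07). Enpp2, which encodes the lysophosphatidic acid producing enzyme autotaxin, had 3.39 and 1.91 CPM, against 53.7 and 34.5 CPM (-3.64 and -3.61). Sparcl1, a matrix protein of the SPARC family, had 26.1 CPM in LPCAT3-AKO members and 13.8 CPM in Control members, against 242 and 161 CPM (-3.16 and -3.46). Fgf10, a growth factor made by fat precursors, had 18.5 and 11.9 CPM, against 107 and 69.9 CPM (-2.47 and -2.46), and Penk, the enkephalin precursor, 16.7 and 14.5 CPM, against 116 and 82.8 CPM (-2.73 and -2.43). Sdc1, Hmcn1, Dmkn, Adam12, Ptn and Scg3 completed the 12. Since cells with 2 or more Col15a1 UMIs were kept out by the choice, low levels of genes that go with Col15a1 are partly set by it, and the Fabp4 level of the Col15a1 gate was 2421 CPM in LPCAT3-AKO and 2662 CPM in Control.

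**Figure D3:**
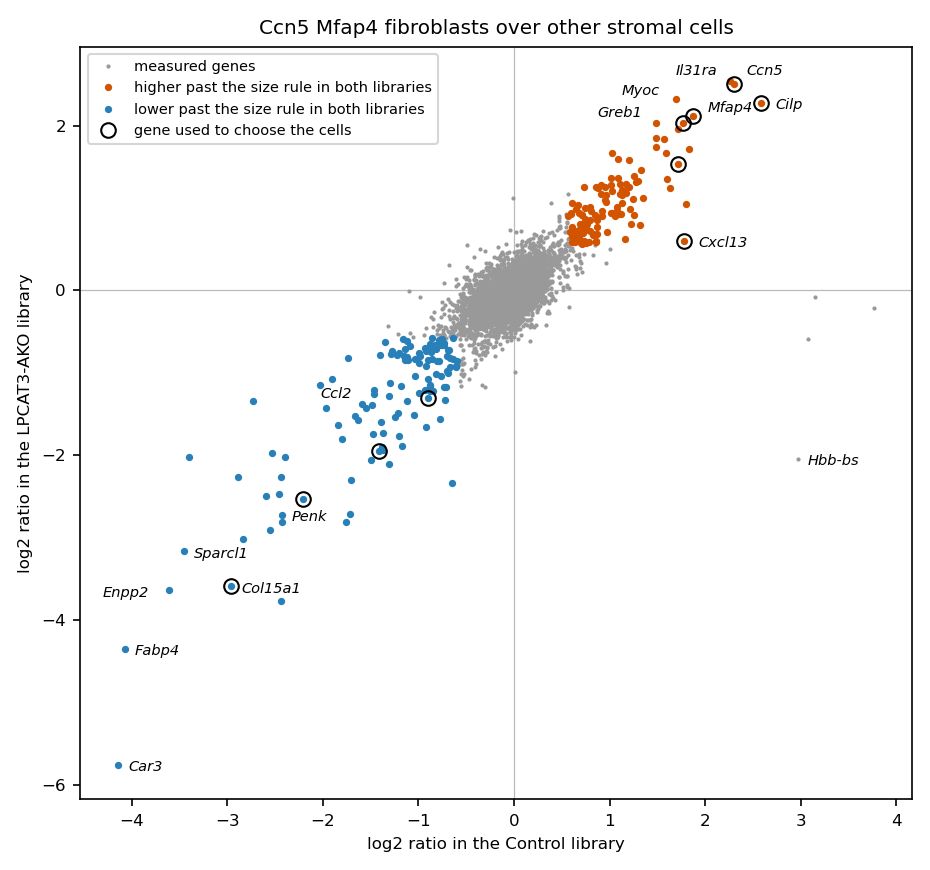
Log2 ratio of members over other stromal cells in the Control library (x axis) and in the LPCAT3-AKO library (y axis), 1 point per measured gene, coloured where the size rule was met in both libraries, with genes of the choice ringed. Il31ra, Myoc and Greb1 lie at the top right, Fabp4 (-4.35 in LPCAT3-AKO and -4.07 in Control), Enpp2 and Sparcl1 at the bottom left, and haemoglobin genes such as Hbb-bs off the diagonal.

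Of the 16 gene lists plotted, that of Wnt ligands and secreted modulators had the highest median. Of 7 measured genes 5 were higher and 1 lower in members of both libraries, with median log2 ratios of 0.92 in LPCAT3-AKO and 0.91 in Control, against -0.02 and -0.04 over all measured genes. Sfrp1, which binds and blocks Wnt proteins, had 115 CPM in LPCAT3-AKO members and 83.4 CPM in Control members, against 47.5 and 35.7 CPM in other stromal cells (1.25 and 1.20). Its relatives Sfrp2 (587 and 455 CPM in members, against 309 and 209 CPM) and Sfrp4 (626 and 674 CPM, against 320 and 356 CPM) were higher as well. Dkk2, a secreted ligand of Wnt co-receptors, had 67.9 and 39.0 CPM in LPCAT3-AKO and Control members, against 27.3 and 20.3 CPM (1.28 and 0.91). Wnt5a, a Wnt ligand that acts mainly outside the beta-catenin route, had 51.2 and 36.3 CPM, against 29.7 and 23.6 CPM. The lower gene was Wnt10b, a ligand known to restrain fat cell formation, at 13.8 CPM in LPCAT3-AKO members and 11.5 CPM in Control members, against 24.3 and 29.3 CPM (-0.77 and -1.28).

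Members also differed in bone morphogenetic protein (BMP) and insulin-like growth factor genes. Of 13 measured BMP and GDF signalling genes 2 were higher and 5 lower in members, and the lower ones were the ligands Bmp2, Bmp3, Bmp4 and Bmp7 along with Gdf10, which the choice limits. Chrdl1, a secreted BMP antagonist, was among the higher ones, at 224 CPM in LPCAT3-AKO members and 228 CPM in Control members, against 120 and 120 CPM. Bmp7 had 19.8 CPM in LPCAT3-AKO members and 25.1 CPM in Control members, against 36.2 and 46.2 CPM (-0.84 and -0.86). In the insulin-like growth factor list of 11 genes, Igf1 and Igfbp3 were higher and Igfbp5 lower. Igfbp3, a binding protein that carries Igf1 in blood and tissue, had 463 CPM in LPCAT3-AKO members and 328 CPM in Control members, against 179 and 154 CPM (1.36 and 1.09). Igfbp5 had 943 and 1035 CPM in LPCAT3-AKO and Control members, against 2915 and 3725 CPM (-1.63 and -1.85).

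Receptors for steroid and growth hormone were high in members. Of 7 measured genes of the steroid and prolactin receptor list 3 were higher and none lower, with medians of 0.72 in LPCAT3-AKO and 0.57 in Control, and 1 of the 3 is Pgr, a gene of the choice. Esr1, the estrogen receptor alpha gene, had 127 CPM in LPCAT3-AKO members and 132 CPM in Control members, against 75.6 and 81.4 CPM in other stromal cells (0.75 and 0.69). Ghr, the growth hormone receptor gene, had 119 and 149 CPM, against 59.7 and 63.9 CPM (0.99 and 1.21). Of 10 measured steroid-responsive genes only Greb1 and Igf1 were higher, and the medians were -0.01 and -0.08, close to those over all measured genes.

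Among matrix genes, some elastic fibre genes were higher and some basement membrane genes lower. Of 17 measured elastic fibre genes 5 were higher and none lower: Mfap4, which the choice used, Fbln1, Fbln2, Lox and Fbn2. Lox, whose enzyme crosslinks elastin and collagen, had 427 CPM in LPCAT3-AKO members and 270 CPM in Control members, against 199 and 139 CPM (1.10 and 0.95). The list medians were 0.18 and 0.02, so most of its genes lay near the level of the other stromal cells. Of 15 measured basement membrane genes none was higher and 6 were lower, with medians of -0.51 and -0.43, and 1 of the 6, Col15a1, is limited by the choice. Col4a1, a chain of collagen IV, had 323 and 297 CPM in LPCAT3-AKO and Control members, against 927 and 613 CPM (-1.52 and -1.04). Postn, which encodes the matrix protein periostin, had 599 CPM in LPCAT3-AKO members and 720 CPM in Control members, against 1898 and 1363 CPM (-1.66 and -0.92). Fibrillar collagens and their processing enzymes were similar, with 1 higher (Pcolce) and 1 lower (Col5a3) of 19.

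Against the other stromal cells, which hold the Col15a1 gate, lists of fat cell commitment were low. The Icam1-high list was not low against the Dpp4 gate alone, as given below. Of 11 measured genes of committed Icam1-high preadipocytes none was higher and 7 were lower, with medians of -1.60 in LPCAT3-AKO and -1.18 in Control, Col15a1 among them. Lpl, lipoprotein lipase, had 579 CPM in LPCAT3-AKO members and 400 CPM in Control members, against 1757 and 1056 CPM (-1.60 and -1.40). Cd36, the fatty acid uptake receptor, had 7.57 and 13.0 CPM, against 59.2 and 46.4 CPM (-2.81 and -1.76). Of 13 measured genes of the Dpp4-high progenitor list none was higher and 3 were lower, Bmp7, Limch1 and Dact2, with medians of -0.16 and -0.37. The 14 measured genes of phospholipid remodelling and phosphatidylcholine synthesis held none past the size rule, with medians of 0.06 and -0.04.

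Immune signals split by gene. C4b, complement component 4, was the 1 gene of 9 measured in the complement list that was higher, at 644 CPM in LPCAT3-AKO members and 671 CPM in Control members, against 306 and 345 CPM (1.07 and 0.96). In the chemokine list of 11 measured genes, Ccl8 was higher besides Cxcl13 of the choice, and Ccl2 was lower. Ccl8, a chemokine for monocytes and other leukocytes, had 121 CPM in LPCAT3-AKO members and 91.1 CPM in Control members, against 63.8 and 55.3 CPM, and its Control log2 ratio turned to -0.20 when set against all other cells with 10 or more Dcn UMIs. Ccl2, which attracts monocytes, had 87.5 CPM in LPCAT3-AKO members and 198 CPM in Control members, against 229 and 598 CPM. Of 17 measured inflammatory and NF-kB genes 2 were lower, Ccl2 and Ptgs2, and none was higher. Il11ra1, the receptor chain for interleukin 11, had 345 CPM in LPCAT3-AKO members and 347 CPM in Control members, against 220 and 223 CPM (0.65 and 0.64), and with Il31ra it made up the 2 higher genes of 9 in the interleukin 6 family list.

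**Figure D4:**
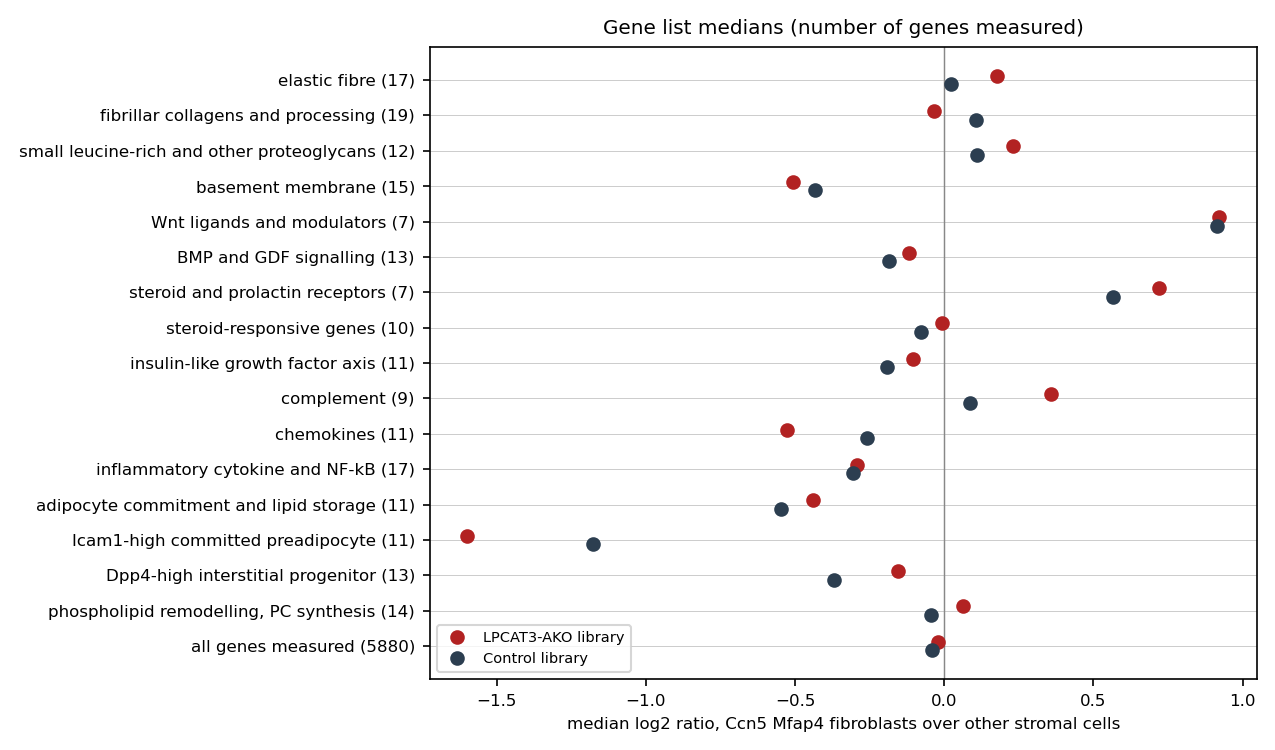
Median log2 ratio of members over other stromal cells for 16 gene lists and for all 5880 measured genes, LPCAT3-AKO in red above Control in dark blue, with the number of measured genes in brackets. Wnt ligands and modulators (0.92 and 0.91) and steroid and prolactin receptors (0.72 and 0.57) lie highest, and Icam1-high committed preadipocyte genes (-1.60 and -1.18) lowest.

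The cells of the Dpp4 gate are those most like the members by Dpp4 and Pi16, and the genes below were chosen after their values were seen. Against them 170 of 5817 measured genes (2.92%) were higher and 183 (3.15%) lower in members of both libraries. Fxyd6, a regulator of the sodium pump, had 73.1 CPM in LPCAT3-AKO members and 47.6 CPM in Control members, against 7.37 and 5.64 CPM in the Dpp4 gate (log2 ratio 3.15 and 2.87). Bgn, the proteoglycan biglycan, had 581 and 354 CPM, against 71.0 and 58.5 CPM (3.02 and 2.58), and Mgp, the matrix Gla protein, 272 and 155 CPM, against 21.3 and 25.9 CPM (3.61 and 2.54). Igf1 had 602 and 419 CPM in LPCAT3-AKO and Control members, against 114 and 95.2 CPM. On the lower side, Igfbp5 had 943 and 1035 CPM in LPCAT3-AKO and Control members, against 4643 and 4946 CPM (-2.30 and -2.26). Dmkn, known from keratinocytes, had 6.01 CPM in LPCAT3-AKO members and 10.3 CPM in Control members, against 66.5 and 93.3 CPM. Krtdap, also known from keratinocytes, had 7.57 and 7.08 CPM, against 69.0 and 80.5 CPM. Dact2, which acts in Wnt signalling inside the cell, had 8.36 and 7.46 CPM, against 60.2 and 58.7 CPM (-2.71 and -2.82).

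By lists, members differed from the Dpp4 gate in F3-high stroma, Wnt and BMP genes. Of the 10 genes listed for the F3-high regulatory stroma 3 were measured, Mgp, Igfbp3 and Cygb. All of these were higher in members, with medians of 2.40 in LPCAT3-AKO and 1.88 in Control. Against the other stromal cells, 2 of 6 measured genes of that list were higher and 3 lower, and the choice limits Fmo2, Inmt and Gdf10 of the list. Of 8 measured Wnt genes 5 were higher, Sfrp1, Sfrp2, Sfrp4, Dkk2 and Wnt5a, and 3 were lower, the ligands Wnt2, Wnt10b and Wnt11. Wnt2 had 87.2 CPM in LPCAT3-AKO members and 58.3 CPM in Control members, against 132 and 112 CPM in the Dpp4 gate. Of 13 measured BMP and GDF genes 3 were higher, Chrdl1 and the BMP target Id2 among them, and Bmp2, Bmp3, Bmp4, Bmp6 and Bmp7 were lower. Bmp4 had 13.8 CPM in LPCAT3-AKO members and 17.0 CPM in Control members, against 43.9 and 46.8 CPM (-1.60 and -1.41). Of 13 measured genes of the Dpp4-high list 8 were lower and none higher, Cd55 among them, at 242 and 305 CPM in LPCAT3-AKO and Control members, against 575 and 540 CPM. Of 8 measured Icam1-high preadipocyte genes 4 were higher, Col4a1, Lpl, Ggt5 and Cxcl14, and none lower. The medians of that list were 0.64 in LPCAT3-AKO and 0.65 in Control. Over all measured genes the medians were 0.01 in LPCAT3-AKO and -0.02 in Control. Pi16, with the levels given above, was more than 1.5-fold lower in Control members than in the gate but not in LPCAT3-AKO members, and Dpp4 did not reach that ratio in either library.

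Against the Col15a1 gate, from which a limit of the choice keeps members apart, 422 of 6110 measured genes (6.91%) were higher and 442 (7.23%) lower in members of both libraries, and the genes named for these gates were chosen after their values were seen. Il33, an alarmin cytokine, had 167 CPM in LPCAT3-AKO members and 212 CPM in Control members, against 27.0 and 45.3 CPM in the Col15a1 gate. Akr1c18, a progesterone-metabolising hydroxysteroid dehydrogenase, had 351 and 444 CPM in LPCAT3-AKO and Control members, against 57.3 and 80.0 CPM. Against the Fmo2 gate, likewise kept apart by a limit, 89 of 5889 measured genes (1.51%) were higher and 164 (2.78%) lower. Both shares were smaller than against the Dpp4 gate (2.92% and 3.15%), which holds more cells. Over all measured genes the Dpp4 gate was thus not the nearest group by this count. Ptpn5, a tyrosine phosphatase known from the brain, had 58.2 CPM in LPCAT3-AKO members and 72.3 CPM in Control members, against 10.5 and 23.9 CPM in the Fmo2 gate. Tgm2 had 175 and 196 CPM in LPCAT3-AKO and Control members, against 46.7 and 78.9 CPM, and Greb1 121 and 140 CPM, against 33.0 and 68.8 CPM. Gas6 in members was thus near or above its level in the Fmo2 gate, and Cxcl13 was below that gate in LPCAT3-AKO and above it in Control. Tgm2, Greb1 and Il31ra were higher in members in both libraries.

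Members were split into 2 kinds by whether a UMI of Cilp or Mfap4 was detected. The split rests on detection alone, and since thinning lowered the shares of cells with these genes, the cells without a UMI can include some that express them. Cells with a UMI of either gene were 234 of 358 LPCAT3-AKO members (65.4%) and 159 of 454 Control members (35.0%), with median depths of 10229.5 and 10666 UMIs, and those without numbered 124 and 295, with medians of 10777 and 11617 UMIs. A member without both genes must, by the choice, have at least 3 of Ccn5, Gas6, Cxcl13 and Pgr. Of 5748 measured genes, 118 (2.05%) were higher and 57 (0.992%) lower in cells with Cilp or Mfap4 than in cells without, in both libraries, and the genes named here were chosen after their values were seen. Bgn had 824 CPM in LPCAT3-AKO and 776 CPM in Control cells with Cilp or Mfap4, against 159 and 142 CPM in those without (log2 ratio 2.36 and 2.44). Mgp had 403 and 358 CPM, against 42.9 and 53.2 CPM (3.20 and 2.73), and Igf1 812 and 815 CPM, against 238 and 220 CPM. Sfrp2 had 801 CPM in LPCAT3-AKO and 941 CPM in Control cells with Cilp or Mfap4, against 216 and 211 CPM (1.89 and 2.16). Fgf9, a growth factor, had 32.5 and 26.8 CPM, against 3.57 and 0.863 CPM. Of 6 measured Wnt genes 4 were higher in the cells with Cilp or Mfap4, Sfrp2, Dkk2, Sfrp1 and Wnt5a, with medians of 1.31 and 1.63. Sfrp4 was not among them, at 658 CPM in LPCAT3-AKO and 829 CPM in Control cells with Cilp or Mfap4, against 569 and 596 CPM.

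The cells without Cilp and Mfap4 had more of other genes. Pla1a, a phosphatidylserine phospholipase, had 312 CPM in LPCAT3-AKO and 266 CPM in Control cells with Cilp or Mfap4, against 697 and 744 CPM in those without (-1.16 and -1.48). Cldn11, a tight junction claudin, had 25.9 and 16.6 CPM, against 89.3 and 67.0 CPM, and Akr1c18 258 and 258 CPM, against 511 and 538 CPM. Of 12 measured Dpp4-high genes 5 were lower in the cells with Cilp or Mfap4 and none higher, while Dpp4 itself had 425 and 392 CPM in them, against 529 and 509 CPM. Some genes were alike in both kinds: Greb1 had 119 and 141 CPM in LPCAT3-AKO and Control cells with Cilp or Mfap4, against 126 and 140 CPM, and Esr1 132 and 141 CPM, against 119 and 127 CPM. Il31ra had 98.0 and 114 CPM in cells with Cilp or Mfap4, against 114 and 74.2 CPM in cells without. Its order between the kinds thus differed between the libraries, whereas Igf1, Sfrp2, Bgn and Mgp were higher in the cells with Cilp or Mfap4 in both. Each kind also stood apart from the Dpp4 gate. In cells with Cilp or Mfap4, 229 of 5860 measured genes (3.91%) were higher and 250 (4.27%) lower than in that gate in both libraries, and in cells without, 117 of 5811 (2.01%) were higher and 133 (2.29%) lower. Il31ra, Trdn, Crispld2 and Fxyd6 were among the genes higher in both kinds, and Dmkn, Krtdap, Dact2, Igfbp5 and Ccl2 among those lower in both.

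Between genotypes, members differed in elastin, in Socs1 and Socs3 and in a few chemokine genes. By the size rule 115 of 5981 measured genes (1.92%) were higher and 105 (1.76%) lower in LPCAT3-AKO members, and in other stromal cells 84 of 6085 (1.38%) were higher and 58 (0.953%) lower. With CPM averaged over cells in place of summed UMIs the counts were 157 higher and 91 lower. With members of both kinds weighted alike in the libraries, 76 were higher and 86 lower, of which 53 and 72 were among the 115 and 105. Within cells with Cilp or Mfap4, 186 of 6078 measured genes (3.06%) were higher and 144 (2.37%) lower in LPCAT3-AKO, and within cells without, 194 of 6032 (3.22%) and 174 (2.88%). Of the 115 higher genes 109 had the same sign in other stromal cells and 30 also passed the size rule there, and of the 105 lower genes 94 had the same sign and 21 passed. The genes named are taken from the 12 highest and 12 lowest by the rule above, and each is set beside the other stromal cells.

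Eln, the elastin gene, stood out among the abundant genes. It had 1864 CPM in LPCAT3-AKO members and 785 CPM in Control members, a ratio of 2.37 (95% interval 2.28 to 2.47) and a log2 ratio of 1.25, and was detected in 94.97% and 96.9% of the cells. In other stromal cells it had 855 CPM in LPCAT3-AKO and 789 CPM in Control (log2 ratio 0.12), in the Dpp4 gate 1112 and 949 CPM, in the Fmo2 gate 626 and 564 CPM, and in the Col15a1 gate 524 and 352 CPM. The Control members were thus level with the other stromal cells and the LPCAT3-AKO members above them. Within the kinds, cells with Cilp or Mfap4 had 2316 CPM in LPCAT3-AKO and 1181 CPM in Control (0.97), and cells without had 1079 and 586 CPM (0.88), so both kinds passed the size rule. Of the 17 measured elastic fibre genes 5 were higher in LPCAT3-AKO members, Eln, Mfap4, Fbln1, Fbln2 and Lox, and none lower, with a median of 0.32 against 0.02 over all genes and 0.26 for the list in other stromal cells. Fbln2 had 1577 CPM in LPCAT3-AKO members and 903 CPM in Control members (0.80), and in the separate kinds 0.42 in cells with Cilp or Mfap4 and 0.77 in cells without. Fbln1 was at 0.18 and 0.76 in these kinds and Lox at 0.30 and 0.46, so Lox passed the size rule in neither kind, and Fbln1 and Fbln2 only in cells without. Mfap4 itself, a gene of the choice, was 1.19 higher over all members and 0.28 within the cells with Cilp or Mfap4, short of the size rule.

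Of 4 measured genes of the SOCS list, which holds feedback inhibitors of cytokine receptor signalling, 2 were higher in LPCAT3-AKO members and none lower, and both were higher in the other stromal cells too. Socs1 had 99.0 CPM in LPCAT3-AKO members and 32.7 CPM in Control members, a ratio of 3.03 (2.52 to 3.65) and a log2 ratio of 1.57, and 72.7 and 29.2 CPM in other stromal cells (1.29). Socs3 had 514 CPM in LPCAT3-AKO members and 231 CPM in Control members, a ratio of 2.23 (2.07 to 2.40) and a log2 ratio of 1.15, and 410 and 182 CPM in other stromal cells (1.17). Socs2 went the other way, at 51.7 CPM in LPCAT3-AKO members and 77.3 CPM in Control members (-0.57), short of the size rule. Within the kinds Socs1 was 1.62 higher in cells with Cilp or Mfap4 and 1.57 in cells without, and Socs3 0.69 and 1.52. The unnamed transcript AI506816 had 26.6 and 8.23 CPM in LPCAT3-AKO and Control members (1.58), and 28.7 and 9.19 CPM in other stromal cells (1.54). The Socs1, Socs3 and AI506816 ratios in members were therefore close to those of the stroma as a whole.

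Other high genes depended on which kind of cell was counted. Myoc had 338 CPM in LPCAT3-AKO members and 156 CPM in Control members (log2 ratio 1.11), but 420 and 361 CPM in cells with Cilp or Mfap4 (0.22) and 194 and 53.2 CPM in cells without (1.85). Fgf9 had 21.9 and 9.57 CPM in LPCAT3-AKO and Control members (1.12), and Hmcn2, a basement membrane hemicentin, 29.2 and 12.2 CPM (1.19). In cells with Cilp or Mfap4 these ratios were 0.27 for Fgf9 and 0.33 for Hmcn2, and neither passed the size rule. In cells without, both genes lay below the minimum of 20 CPM in each library, so neither could pass there. Adamts4, an enzyme that cleaves aggrecan, had 79.4 CPM in LPCAT3-AKO members and 29.3 CPM in Control members (1.41), with 56.0 and 57.7 CPM in cells with Cilp or Mfap4 and 120 and 14.96 CPM in those without. A single cell held 17.8% of the Adamts4 UMIs of LPCAT3-AKO members and 26.1% of those of Control members. Gadd45a, a stress-induced gene, had 33.9 and 13.8 CPM (1.24), Ecscr, known from endothelium, 51.7 and 21.4 CPM (1.23), Prg4, which encodes the joint lubricant lubricin, 23.8 and 10.7 CPM (1.08), and Tcea3, a transcription elongation factor, 30.03 and 14.5 CPM (1.0) in LPCAT3-AKO and Control members. In other stromal cells Gadd45a (0.84) and Tcea3 (0.61) passed the size rule, and Ecscr (0.14) and Prg4 (0.58) did not.

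Of 11 measured chemokine genes 3 were lower in LPCAT3-AKO members and none higher, with a median of -0.28, against 0.09 in other stromal cells. Cxcl2 had 52.2 CPM in LPCAT3-AKO members and 174 CPM in Control members (ratio 0.300, interval 0.256 to 0.350) and 119 and 215 CPM in other stromal cells. Cxcl1, like Cxcl2 a chemokine for neutrophils, had 320 CPM in LPCAT3-AKO members and 841 CPM in Control members (ratio 0.381, interval 0.357 to 0.406), and was detected in 46.4% and 67.2% of them. In other stromal cells Cxcl1 had 689 CPM in LPCAT3-AKO and 1246 CPM in Control (-0.85). Ccl2 had 87.5 CPM in LPCAT3-AKO members and 198 CPM in Control members (ratio 0.442, interval 0.389 to 0.500), and 229 and 598 CPM in other stromal cells (-1.38). Within the kinds, Cxcl2 (-1.80 and -1.89) and Cxcl1 (-1.45 and -1.10) were lower in LPCAT3-AKO cells with and without Cilp or Mfap4, and Ccl2 (-0.45 and -1.16) passed the size rule in cells without. Ccl8 (0.47 and -0.43) and Cxcl12 (0.30 and -0.28) differed in sign between the kinds and passed in neither.

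These genes were part of lower inflammatory and stress lists in both stromal groups. Of 17 measured inflammatory and NF-kB genes 6 were lower and none higher in LPCAT3-AKO members, with a median of -0.38, against -0.55 in other stromal cells. Besides Ccl2, Cxcl1 and Cxcl2 these were Ptgs2, the cyclooxygenase 2 gene (257 and 417 CPM in LPCAT3-AKO and Control members), Tnfaip3, a brake on NF-kB (60.3 and 91.6 CPM), and Nfkb2, an NF-kB subunit (24.0 and 42.9 CPM). Of 19 immediate-early genes, which respond to handling and digestion as well as to signals, 5 were lower and none higher, with a median of -0.29, against -0.18 in other stromal cells. Fosb, a transcription factor of this list, had 679 CPM in LPCAT3-AKO members and 1096 CPM in Control members (-0.69). Of 13 heat shock genes 3 were lower, among them Hspa1a at 36.6 and 73.3 CPM (-0.98), with a median of -0.21. Ptgs2 was 1.16 lower on the log2 scale in cells with Cilp or Mfap4 and level in cells without (0.00). The part of tissue handling in these lists was not tested.

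The other low genes were scarcer. Nrk, a kinase gene, had 25.9 CPM in LPCAT3-AKO members and 63.3 CPM in Control members (-1.26), and 12 and 17.5 CPM in other stromal cells. It passed the size rule in cells with Cilp or Mfap4 (-1.02) and in cells without (-1.05). Mpp7, a scaffold protein of cell junctions, had 23.0 and 52.2 CPM in LPCAT3-AKO and Control members (-1.15), and 52.1 and 66.3 CPM in other stromal cells. Cyp7b1, an oxysterol hydroxylase, had 6.79 and 20.7 CPM (-1.48), Fyb2, an adaptor protein, 9.92 and 29.1 CPM (-1.46), Prdm8, a histone methyltransferase family member, 8.36 and 23.5 CPM (-1.39), Nmb, the peptide neuromedin B, 8.36 and 20.1 CPM (-1.17), and Snhg11, a host transcript of small nucleolar RNAs, 12.3 and 28.1 CPM (-1.13). Of these Fyb2 was also lower by the size rule in other stromal cells (-1.25). Cd163, a macrophage receptor, had 8.88 CPM in LPCAT3-AKO members and 20.7 CPM in Control members (-1.13), but 661 and 697 CPM in the immune gate, and the difference reversed to 0.15 once likely doublets were removed.

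**Figure D5:**
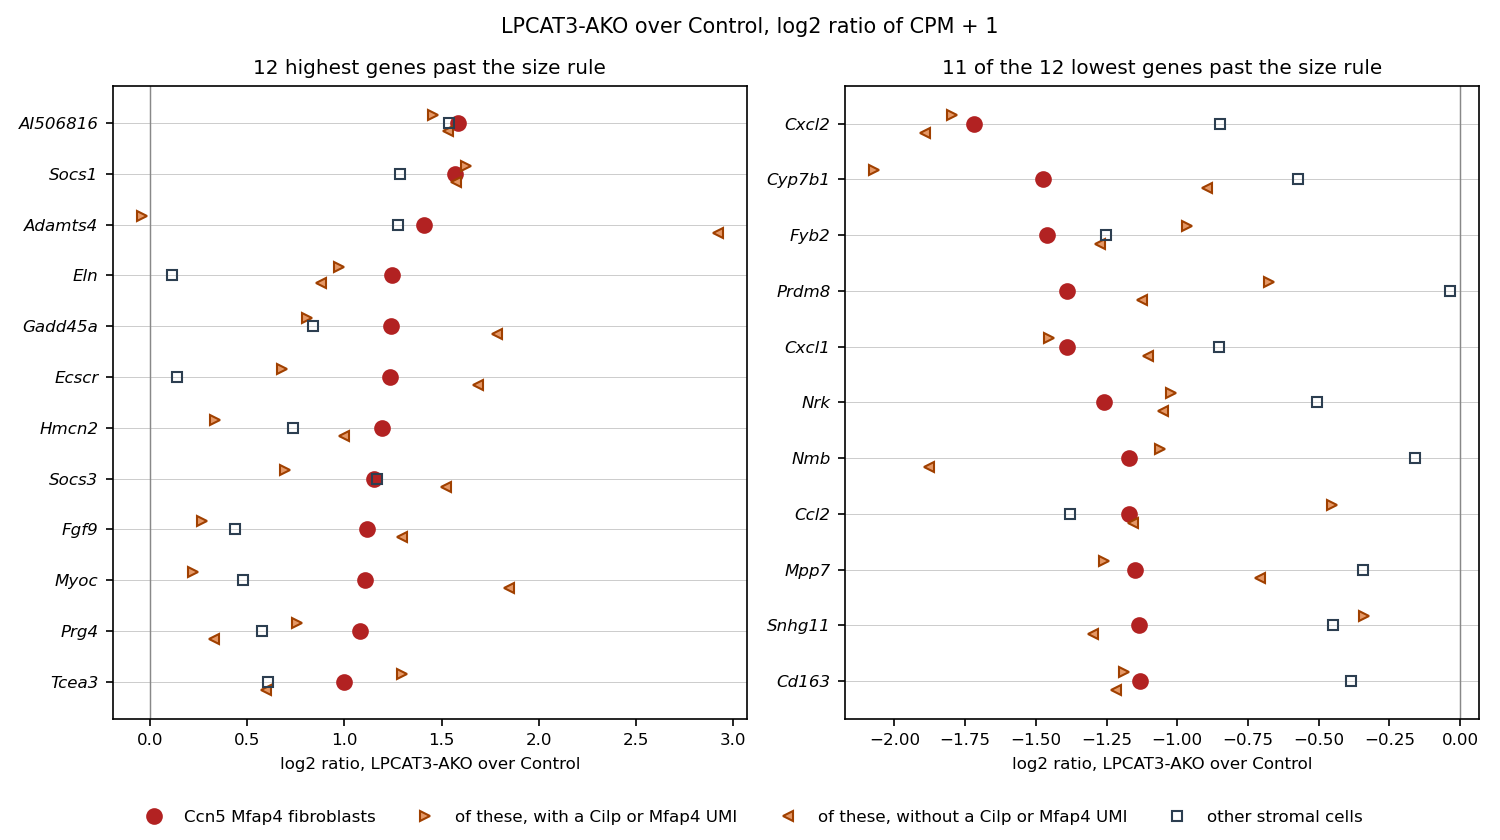
Log2 ratio of LPCAT3-AKO over Control for the 12 highest (left) and 11 of the 12 lowest (right) genes in members (filled circles), in members with and without a Cilp or Mfap4 UMI (right- and left-pointing triangles) and in other stromal cells (open squares). Eln (1.25 in members, 0.12 in other stromal cells) and Cxcl2 (-1.72 and -0.85) lie far from their squares, while Socs3 (1.15 and 1.17) and AI506816 (1.58 and 1.54) lie on them.

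Other lists held few genes past the size rule between genotypes. Retinoid genes gave 2 higher of 6 measured, Dhrs3, which reduces retinal (90.4 CPM in LPCAT3-AKO members and 47.8 CPM in Control members, 0.90), and Cyp26b1, which degrades retinoic acid (30.6 and 17.6 CPM, 0.76), and 1 lower, the retinol carrier Rbp4 (13.6 and 21.4 CPM, -0.62). Within cells with Cilp or Mfap4, Cyp26b1 was level (34.2 and 36.0 CPM, -0.07), Dhrs3 was at 0.50, short of the size rule, and Rbp4 passed it (-0.64). Of 9 BMP and GDF genes, Nbl1, a BMP antagonist (589 and 363 CPM), and the BMP target Id2 (107 and 67.3 CPM) were higher. Of 15 phospholipid remodelling and phosphatidylcholine synthesis genes, Fads1, a fatty acid desaturase, was higher (42.0 and 27.9 CPM, 0.57) and Chka, choline kinase alpha, lower (11.8 and 25.8 CPM, -1.07), with a median of 0.09. Chka was lower in other stromal cells as well (-0.69). No gene passed the size rule in members as a whole among 7 steroid and prolactin receptors (median -0.05), 11 insulin-like growth factor genes (0.24), 9 complement genes (-0.06), 21 interferon-induced genes (0.01, against -0.21 in other stromal cells), 12 Dpp4-high genes (0.03) and 9 fat cell commitment genes (0.06). Within the kinds, Igfbp5 passed it in cells with Cilp or Mfap4, at 905 CPM in LPCAT3-AKO and 523 CPM in Control (0.79). In cells without, Igfbp5 went the other way, at 1009 and 1294 CPM (-0.36), short of the size rule. The interferon list is limited by the choice, whose cap on Rsad2, Ifit1 and Ifit3 removed more of the marker-positive cells in Control, and Rsad2 had 21.4 CPM in LPCAT3-AKO members and 30.4 CPM in Control members, against 29.2 and 77.2 CPM in other stromal cells. Cxcl13 and Pgr, which fewer LPCAT3-AKO members carried, were at log2 ratios of -0.56 and -0.20 by CPM over all members, short of the size rule. In cells without Cilp or Mfap4, Cxcl13 passed it, at 185 CPM in LPCAT3-AKO and 297 CPM in Control (-0.68). In cells with either gene Cxcl13 did not pass (-0.28).

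Markers of other cells were looked for in the members. Of 13 macrophage and monocyte genes 12 had a UMI in members of each library, and their summed level was 352 CPM in LPCAT3-AKO and 337 CPM in Control, against 295 and 333 CPM in other stromal cells. Between genotypes some of these genes differed in opposite directions in the 2 kinds. C1qa had 91.8 CPM in LPCAT3-AKO and 51.4 CPM in Control cells with Cilp or Mfap4, but 36.4 and 66.7 CPM in cells without, and Lyz2 125 and 64.5 CPM with, but 62.9 and 94.9 CPM without. C1qb did likewise (0.68 and -1.09), and all of these passed the size rule in each kind. Blood endothelial genes summed to 92.4 CPM in LPCAT3-AKO members and 88.2 CPM in Control members, nearly all of it Kdr (87.5 and 84.4 CPM), and mural genes to 74.9 and 52.8 CPM, mostly Abcc9 (54.3 and 40.6 CPM). The 6 B cell and plasma cell genes summed to 2.35 CPM in LPCAT3-AKO members and were at 0 in Control members, and the 9 T and NK cell genes summed to 0.783 and 0.765 CPM. Mature fat cell genes summed to 0.261 CPM in LPCAT3-AKO members and 1.34 CPM in Control members, against 56.9 and 39.7 CPM in other stromal cells. Ptprc, Pecam1 and Epcam were at 0 by the choice. The part of these transcripts in the gene differences was not tested.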

How the data were processed

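Single-cell RNA libraries of 1 LPCAT3-AKO and 1 Control sample were analysed from the raw UMI counts per gene and barcode that the authors deposited, which are unnormalized whole numbers. Cell Ranger 6.1.2, Seurat 4.10 and mm10 are named in the submitters' processing notes. The sources used here give neither the annotation release nor any doublet removal. Genes carry the deposited symbols, and where several entries shared a symbol, the one with the most UMIs kept it (40 entries set aside).

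Cells were taken by the raw counts as the report states. Members and gene lists were chosen with earlier results of these data known. The UMIs of a gene were added up within each group of a library and divided by the total of that group. Ratios were given exact binomial and levels exact Poisson 95% intervals. PCR and sampling of cells add error that these do not cover, and no p-value was computed. A count of 0 allows 3 counts. Named genes are the genes of the choice, Il31ra, Lpcat3, the leading genes stated in the report and up to 4 members of each list, those past the size rule with the highest CPM; a few of them are not reported here. Doublets were left in and removed in an alternative (Scrublet). The size rule was tested on simulated data. Python 3.11.15, numpy 2.4.6, scipy 1.17.1, pandas 2.3.3, scanpy 1.11.5 and matplotlib 3.10.9 were used. Alternatives changed the marker number, the Dcn minimum, the mt- limit, the doublets, the depth (cells thinned to 5000 UMIs), the upper limits, the comparison cells, the scaling, the level and ratio limits and the weight of cell kinds; the last was added after the data were seen.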

Additional observations from a re-analysis of the deposited data

Results flagged for a closer look

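Haemoglobin genes ran in opposite directions between genotypes in members and in other stromal cells, and the difference between these groups of cells was not tested. In members the log2 ratios of LPCAT3-AKO over Control were -1.14 for Hbb-bt, -2.69 for Hbb-bs, -0.83 for Hba-a1 and -0.71 for Hba-a2. In other stromal cells they were 2.85 for Hbb-bt, 2.31 for Hbb-bs, 2.84 for Hba-a1 and 2.52 for Hba-a2. Hbb-bs had 24.3 CPM in LPCAT3-AKO members and 162 CPM in Control members, against 103 and 19.9 CPM in other stromal cells. A single Control cell held 98.9% of the Hbb-bs UMIs of Control members, and a single LPCAT3-AKO cell 66.7% of those of LPCAT3-AKO members.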

How the results depend on the processing

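The share of members in LPCAT3-AKO over Control moved to 0.953 without upper limits. Genes higher and lower in LPCAT3-AKO members numbered 70 and 54 with 2 of 6 markers, 201 and 180 with 4 of 6, 392 and 334 with no minimum level, 46 and 37 with a minimum of 50 CPM, and 17 and 24 with a ratio of 2. Higher genes numbered 213 after thinning to 5000 UMIs and 76 with cells with and without Cilp or Mfap4 weighted alike. Genes higher and lower in members than in other stromal cells numbered 181 and 188 without upper limits, 229 and 412 with no minimum level, 77 and 50 with 50 CPM, and 40 and 53 with a ratio of 2. Higher ones numbered 49 with 2 of 6 markers, and lower ones 207 after thinning and 270 against all other Dcn-positive cells. Of all 115 higher and 105 lower genes between genotypes, 59 and 41 were still called after thinning. With 2 of 6 markers 57 and 45 were still called, without upper limits 58 and 55, and with doublets removed 103 and 86. Named genes, many of them picked for the largest ratios, held better. Of 672 values for 56 named genes between genotypes, 670 kept their direction and 569 also passed the size rule. Of 1628 values for 74 genes between members and other stromal cells, 1627 kept their direction and 1522 also passed. The reversed ones were Cd163 between genotypes (0.15 with doublets removed, 0.18 after thinning), and members over other stromal cells in Control for Ccl8 (-0.20 against all other Dcn-positive cells); the cause was not tested.

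No paired analysis was possible because each genotype is 1 library and the labels give no replicate numbers. For the same reason there was no replicate to leave out and no spread between mice to measure. Members are few, so a gene near 20 CPM rests on few UMIs, and small differences were not detectable at this depth. The 3 of 6 rule takes deeper cells more readily, and shares of cells with a UMI depend on depth.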

Other observations

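Among members, cells with a Cxcl13 UMI (178 in LPCAT3-AKO, 316 in Control) had 117 and 92.0 CPM of Il31ra, against 88.9 and 76.6 CPM in the members without one. Cxcl13 is a gene of the choice, so a member without it must hold 3 of the others. Apoe, the lipid carrier, had 204 CPM in LPCAT3-AKO and 494 CPM in Control members with Cxcl13, against 346 and 314 CPM in members without, so its order differed between the libraries.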
